A study of Mus musculus with 8 samples.

Results

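The 9 genes described here encode proteins that make glucose in the liver, pass it through the hepatocyte membrane, phosphorylate or hold it, and sense it: G6pc, Pck1, Fbp1, Pcx, Gckr, Pfkl, Slc2a2, Pfkfb1 and Mlxipl. They were chosen by name and found on the array through the RefSeq accession of their probe. All 9 were found, each with 1 probe, among 23889 tested genes with a symbol and 42965 tested features in all. RNA came from the livers of male mice on a background made from the New Zealand Obese strain (NZO/HiBomDife, a polygenic model of obesity and fatty liver) and C57BL/6J. Livers of 2 recombinant congenic genotypes were compared, with 4 arrays for each. The first, Ltg/NZO.5.3N/N, is called NN here and the second, Ltg/NZO.5.3N/B, is called NB. According to the title of the study they are unlike over 5.3 Mbp of chromosome 18, where none of the 9 genes lies. What the letters N and B stand for is not spelled out in the labels. Both genotypes ate a diet with 45% fat until week 5, and neither the feeding state nor the hour at tissue collection is given in the sources used here.

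Gluconeogenesis is the route by which the liver makes glucose from lactate, amino acids and glycerol between meals. Glucagon, glucocorticoids and fasting raise transcription of Pck1 and G6pc, and insulin lowers it through the forkhead factor FOXO1. Glycolysis shares its reversible steps with this route, but enzymes of its own carry it past the irreversible ones, and it prevails after a meal, when glucose activates ChREBP, the transcription factor that Mlxipl encodes. Pck1 and G6pc transcripts turn over fast in liver, so their level in a sample depends on when the animal last ate.

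Liver RNA was labelled with Cy3 and hybridised to 1-colour Agilent arrays, and every level below is the log2 processed signal minus the 75th percentile of the same array, so 0 marks the signal that 75% of probes lie under. Levels of different genes cannot be set against each other, because each probe binds with its own strength. That percentile lay between 445 and 584 intensity units, and correlations between arrays across features ran from 0.989 to 0.995, with array NB 8 the least like the others. Precision is limited by how few arrays there are. No label ties an array to an animal of its own, and a p-value here therefore speaks only of the spread between these samples, which may be technical. All 12 hepatocyte markers on a list for this purpose, among them Alb, Ttr and Apoa1, were well above background on all 8 arrays by the scanner software's own mark. All 9 genes were also well above background on all 8 arrays, and no spot was saturated.

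Each gene was measured with a single oligonucleotide, so its value is that of the transcripts this oligonucleotide binds. The first 30 bases of each probe, 5′ to 3′ as the scanner files give them, show which sequence stood for each gene; whole probes were 46 to 58 bases long.
G6pc: gtcctcctgcctcggctgatttgcagagta
Pck1: tgtctgtcccattgtccacagtatatttaa
Fbp1: taatgctttgcaatgcccaaggtcacttca
Pcx: aagacctaattcacaggtcctgggaaattt
Gckr: gagtcctgttctcagctggatcatttccat
Pfkl: caccttgagcatagacaagggtttctgagc
Slc2a2: tccaaagcatgttagtttctcaccacttca
Pfkfb1: gaatgagattgatgcgggtgtctgtgaaga
Mlxipl: gcatggcaggcatcttgcatgaatgtagat
Gene positions on GRCm38.p6, from RefSeq, are chr11:101367716-101377903 for G6pc, chr2:173153073-173159274 for Pck1, chr13:62864753-62888298 for Fbp1 and chr19:4510472-4621752 for Pcx. Gckr lies at chr5:31297266-31327302, Pfkl at chr10:77986947-78009807, Slc2a2 at chr3:28697903-28728361, Pfkfb1 at chrX:150587445-150643878 and Mlxipl at chr5:135089890-135139768. The array files list every probe as unmapped, so the exon each probe lies in is not given here.

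The comparison of the genotypes gave no called difference for these genes. With limma, a linear model fitted to all features that shares their spread, 0 of the 9 had an adjusted p under 0.05, against 0.00698% of all features (3 of 42965). At an unadjusted p under 0.05 the count was also 0 of 9, against 1.69% of all features (0.957% lower and 0.738% higher in NB). Likewise 0 of 9 had genotypes whose arrays did not overlap, against 1.1% (0.673% lower and 0.426% higher in NB). The adjusted p over all features was 1.00 for each gene, and all 9 intervals of 95% included 0. The mean signal was lower in NB for 9 of 9 genes, where 54.1% of all features had a lower mean in NB (64.0% with normexp background correction, where the 9 genes again were all lower). The median log2 fold change of the 9 was −0.17, beside −0.01 over all features. The genes were picked with earlier results of these data known, and this direction is a description. In bulk liver, fewer hepatocytes and less RNA per hepatocyte cannot be told apart.

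**Figure D1:**
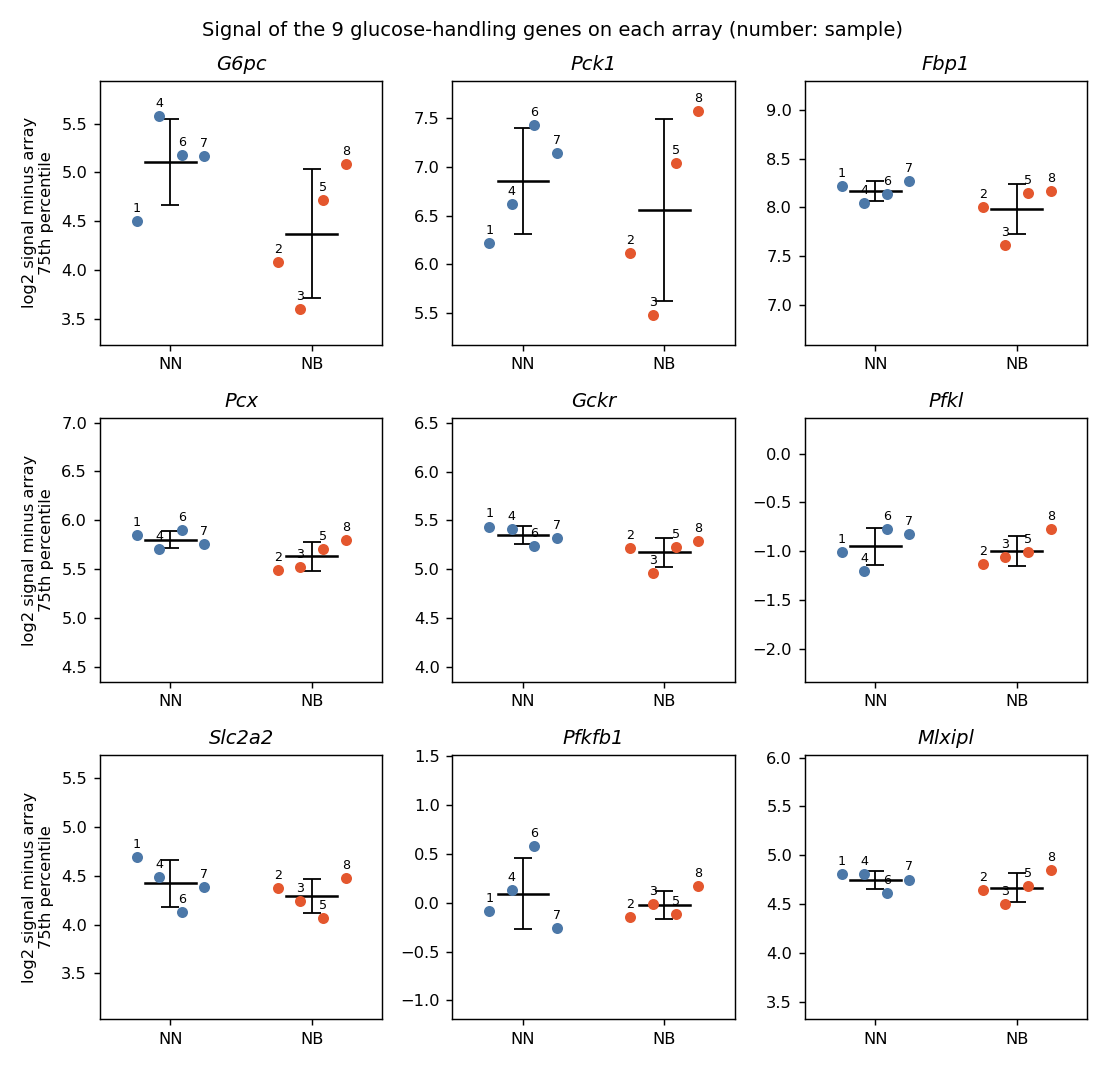
Each panel shows 1 gene, with the log2 signal minus the array's 75th percentile on the vertical axis, NN arrays in blue and NB arrays in red, the sample number above each point, and bars for the mean and SD (n = 4 per genotype); the axes of all panels span the same number of log2 units. G6pc and Pck1 spread over 3.93-fold and 4.26-fold across the 8 arrays, while the other 7 genes stay within 1.80-fold.

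G6pc encodes the catalytic subunit of glucose-6-phosphatase, which releases free glucose in the last step of both gluconeogenesis and glycogen breakdown. Its log2 signal was 4.50, 5.57, 5.17 and 5.17 on arrays NN 1, NN 4, NN 6 and NN 7. On arrays NB 2, NB 3, NB 5 and NB 8 it was 4.09, 3.60, 4.72 and 5.09. Arrays NB 2 and NB 3 lay below every NN array, and NB 5 and NB 8 lay within the NN range. The mean was 5.11 ± 0.44 (SD, n = 4) in NN and 4.37 ± 0.66 (SD, n = 4) in NB, which is 1.66-fold lower in NB. The log2 fold change was −0.73 (SE 0.336, 95% interval −1.50 to 0.03; limma adjusted p = 1.00, unadjusted p = 0.0580). The difference was thus not larger than the test allows for the spread between arrays, and the interval reaches from a 2.82-fold lower to a 1.02-fold higher level in NB. Without array NB 3 the log2 fold change was −0.47, so that array moved the value by more than 1.5 times. In each of the slide's 4 columns an NB array lay beside an NN array, and G6pc was lower in NB in 4 of 4. The differences were −0.42, −1.97, −0.46 and −0.08 on the log2 scale. Of the other genes, Gckr was also lower in 4 of 4 columns. Pck1, Fbp1, Pcx, Slc2a2 and Pfkfb1 were lower in 3 of 4, and Pfkl and Mlxipl in 2 of 4.

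Pck1 encodes the cytosolic phosphoenolpyruvate carboxykinase, which turns oxaloacetate into phosphoenolpyruvate. Its log2 signal was 6.22, 6.62, 7.43 and 7.14 on arrays NN 1, NN 4, NN 6 and NN 7, and 6.12, 5.48, 7.04 and 7.57 on arrays NB 2, NB 3, NB 5 and NB 8. NB held both the lowest and the highest array, so the NN arrays lay inside the NB range, and NB 2 also lay just below the lowest NN array. The spread within NB alone was 4.26-fold, against 2.31-fold within NN. The means were 6.55 ± 0.93 in NB and 6.85 ± 0.54 in NN (SD, n = 4 each), with a log2 fold change of −0.30 (SE 0.451, 95% interval −1.33 to 0.72; limma adjusted p = 1.00). Without NB 3 the log2 fold change was 0.06, so 1 array set its sign.

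Fbp1, the fructose-1,6-bisphosphatase of liver, and Pcx, the mitochondrial pyruvate carboxylase that feeds oxaloacetate into the route, varied far less. Fbp1 read 8.22, 8.04, 8.14 and 8.27 on the NN arrays in the order above, and 8.00, 7.61, 8.14 and 8.17 on the NB arrays. Array NB 3 was the low one, NB 2 lay just below the lowest NN array, and the other 2 NB arrays lay within the NN range. Fbp1 had a log2 fold change of −0.19 (SE 0.130, 95% interval −0.48 to 0.11; limma adjusted p = 1.00), and −0.06 without NB 3. Pcx read 5.85, 5.71, 5.90 and 5.76 on the NN arrays and 5.50, 5.52, 5.71 and 5.80 on the NB arrays. Arrays NB 2 and NB 3 lay below all NN arrays, as they did for G6pc, Pck1 and Fbp1. Its log2 fold change was −0.17 (SE 0.0936, 95% interval −0.38 to 0.04; limma adjusted p = 1.00), which leaves room for at most a 1.31-fold lower level in NB.

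Gckr encodes a regulatory protein of hepatocytes that restrains their use of glucose when glucose is low. More NB arrays lay below the whole NN range for Gckr than for any other of the 9 genes. NN arrays read 5.44, 5.41, 5.24 and 5.32, and NB arrays 5.22, 4.96, 5.22 and 5.29. Of the 4 NB arrays, 3 lay below every NN array, and NB 8 was the exception. Gckr had a log2 fold change of −0.18 (SE 0.0944, 95% interval −0.39 to 0.04; limma adjusted p = 1.00, unadjusted p = 0.0925), and NB was lower in 4 of 4 slide columns. Without NB 3 the value was −0.11.

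Slc2a2 encodes GLUT2, the membrane carrier through which glucose enters and leaves hepatocytes. It read 4.70, 4.48, 4.13 and 4.38 on the NN arrays and 4.38, 4.25, 4.07 and 4.48 on the NB arrays, with only NB 5 below the NN range. The log2 fold change was −0.13 (SE 0.137, 95% interval −0.44 to 0.18; limma adjusted p = 1.00), and with 1 array left out it ran from −0.23 without NN 6 to −0.04 without NN 1. Array NN 6, which was high for Pck1 and G6pc, held the second lowest Slc2a2 signal of the 8.

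Pfkl, the liver subunit of phosphofructokinase, and Pfkfb1, the liver enzyme that makes and breaks fructose 2,6-bisphosphate and so sets the direction between glycolysis and gluconeogenesis, lay closer to background. Pfkl read −1.01, −1.20, −0.78 and −0.82 on the NN arrays and −1.13, −1.06, −1.01 and −0.78 on the NB arrays. All NB arrays lay within the NN range but for NB 8, which was higher than the highest NN array by less than 0.01. Its log2 fold change was −0.04 (SE 0.120, 95% interval −0.32 to 0.23; limma adjusted p = 1.00). Pfkfb1 read −0.09, 0.13, 0.58 and −0.26 on the NN arrays and −0.15, −0.01, −0.12 and 0.17 on the NB arrays. Here the wider spread was in NN, 1.80-fold against 1.24-fold in NB, and every NB array lay inside the NN range. Pfkfb1 had a log2 fold change of −0.12 (SE 0.174, 95% interval −0.51 to 0.28; limma adjusted p = 1.00). Without NN 6 it was 0.05.

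Mlxipl, which encodes ChREBP, was the steadiest of the 9 across arrays, with a 1.28-fold range. It read 4.81, 4.81, 4.61 and 4.75 on the NN arrays and 4.64, 4.50, 4.68 and 4.85 on the NB arrays, with NB 3 below and NB 8 above all others. Its log2 fold change was −0.08 (SE 0.0945, 95% interval −0.29 to 0.14; limma adjusted p = 1.00), and −0.02 without NB 3. The interval allows at most a 1.22-fold lower level in NB.

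**Figure D2:**
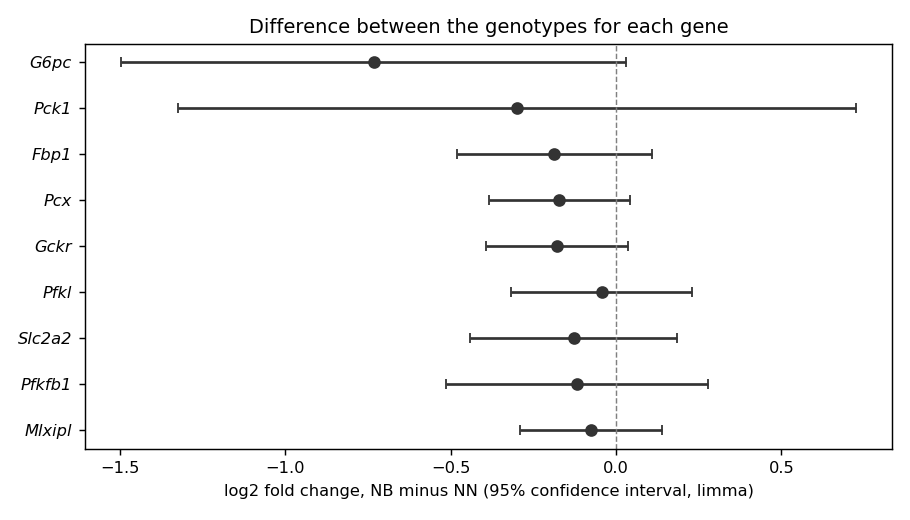
Points give the log2 fold change (NB minus NN) of each gene and bars its 95% confidence interval from limma (n = 4 arrays per genotype). All 9 points lie left of 0 and all 9 bars cross it, and the bars of G6pc (−1.50 to 0.03) and Pck1 (−1.33 to 0.72) are the widest.

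The 9 genes differed in how much they varied between arrays of 1 genotype. The SD within genotypes stood at percentile 99.0 of all tested features for Pck1 and at percentile 97.0 for G6pc. Pfkfb1 followed at percentile 77.5, Slc2a2 at 62.5, Fbp1 at 58.1 and Pfkl at 51.2. Mlxipl, Gckr and Pcx were among the steadier features, at percentiles 28.3, 28.2 and 27.2. G6pc and Pck1 thus varied most, while the intervals of the other 7 genes all stayed within a 1.43-fold lower level.

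Array by array, some arrays were low or high for most of the 9 genes. On array NB 3 all 9 lay below their mean over the 8 arrays, and 5 of the 9 (G6pc, Pck1, Fbp1, Gckr and Mlxipl) had their lowest value there. On NB 8 all 9 lay above their mean, and Pck1, Pfkl and Mlxipl had their highest value there. NB 2 had 8 of 9 below the mean and NB 5 had 7 of 9. The NN arrays were mixed, with 4, 4, 3 and 1 genes below the mean on NN 1, NN 4, NN 6 and NN 7. Of the 36 pairs among the 9 genes, 30 had a positive Pearson correlation over the 8 arrays, with a median of 0.492, from −0.268 for Slc2a2 with Pfkfb1 to 0.874 for Gckr with Mlxipl. All pairs share the same 8 arrays and their scaling, and no test was made of them.

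Promoters are shown for G6pc and Pck1, the genes with the widest swings, and for Mlxipl. They were searched for short motifs tied to insulin, glucagon and glucose. A site outside the 250 bases of a window, or with other letters, would not be marked. A missing match therefore does not mean a missing site. Each line gives the 250 bases before a RefSeq start on GRCm38.p6, 5′ to 3′ along the gene's strand, which is the plus strand for all; it is the C57BL/6J reference, not the sequence of these mice. Capitals mark matches on either strand to TGTTTAC or TGTTTTG (forkhead and insulin response motifs), TGACG (the core of the cAMP response element) and CACGTG (the E-box that ChREBP binds in pairs). The stretches are chr11:101367466-101367715, chr2:173152823-173153072, chr5:135089640-135089889 and chr5:135106641-135106890.
G6pc: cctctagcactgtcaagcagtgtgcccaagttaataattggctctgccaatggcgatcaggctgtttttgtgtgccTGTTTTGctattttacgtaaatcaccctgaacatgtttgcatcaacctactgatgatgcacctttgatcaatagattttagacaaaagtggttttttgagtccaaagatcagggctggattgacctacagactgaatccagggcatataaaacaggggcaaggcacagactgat
Pck1: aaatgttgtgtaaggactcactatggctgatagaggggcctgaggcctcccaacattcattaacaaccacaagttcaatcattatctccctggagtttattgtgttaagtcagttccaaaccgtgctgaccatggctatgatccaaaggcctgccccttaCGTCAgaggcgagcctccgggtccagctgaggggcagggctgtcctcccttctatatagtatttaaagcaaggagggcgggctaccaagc
Mlxipl, upstream start: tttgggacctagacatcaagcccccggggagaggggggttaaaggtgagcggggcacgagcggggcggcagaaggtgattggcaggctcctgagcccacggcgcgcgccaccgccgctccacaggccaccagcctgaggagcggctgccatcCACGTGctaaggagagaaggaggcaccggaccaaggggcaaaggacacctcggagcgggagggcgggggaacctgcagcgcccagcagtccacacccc
Mlxipl, downstream start: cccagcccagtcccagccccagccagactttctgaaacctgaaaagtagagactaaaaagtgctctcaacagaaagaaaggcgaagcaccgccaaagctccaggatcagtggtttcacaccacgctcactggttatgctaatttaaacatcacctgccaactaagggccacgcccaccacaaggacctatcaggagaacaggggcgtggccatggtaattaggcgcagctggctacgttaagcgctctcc
G6pc held 1 match, TGTTTTG on the gene's strand, from 174 to 168 bases before the start; 5.56% of 32851 starts in the RefSeq table hold this motif in a window of this length. Pck1 held 1 match, TGACG on the opposite strand and therefore printed as CGTCA, from 90 to 86 bases before the start, a motif that 17.8% of starts hold. The upstream start of Mlxipl held 1 CACGTG, from 98 to 93 bases before it, as 6.02% of starts do, and the downstream start held no match. TGTTTAC, found at 3.17% of starts, did not occur in these 4 windows. The promoters of all 9 genes were searched. Gckr also held TGTTTTG, from 83 to 77 bases before its start, and the upstream start of Pcx held CACGTG, from 248 to 243. Both genes varied little, with an SD within genotypes at percentiles 28.2 and 27.2. Whether a motif has a part in how much a gene varied was not tested. Fbp1, Pfkl, Slc2a2 and Pfkfb1 held no match. No matches overlapped. A match is a run of letters and not a measured site.

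Feeding state leaves a known mark on liver RNA. It is not given for these samples, and its part in the values below was not tested. Igfbp1, a secreted binding protein that insulin shuts down within hours, spread over 6.16-fold. It read 0.87, 2.82, 1.31 and 1.52 on arrays NN 1, NN 4, NN 6 and NN 7, and 0.20, 1.64, 0.64 and 2.06 on NB 2, NB 3, NB 5 and NB 8. NB 2 was low for Igfbp1 as for G6pc and Pck1, but NB 3, the lowest array for both, was above the Igfbp1 mean. Between genotypes Igfbp1 had a log2 fold change of −0.49 (SE 0.504; limma adjusted p = 1.00).

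Srebf1, the insulin-induced regulator of fat synthesis, had a log2 fold change of −0.17 (SE 0.131; limma adjusted p = 1.00), and its lowest array was NB 3 at 4.00, against 4.28 to 4.62 on the others. Pklr, the liver pyruvate kinase gene and a classic ChREBP target, read −0.12, −0.28, 0.05 and −0.08 on the NN arrays and −0.43, −1.20, −0.48 and −0.08 on the NB arrays. NB 3 was low here too, and the log2 fold change was −0.44 (SE 0.212; limma adjusted p = 1.00).

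**Figure D3:**
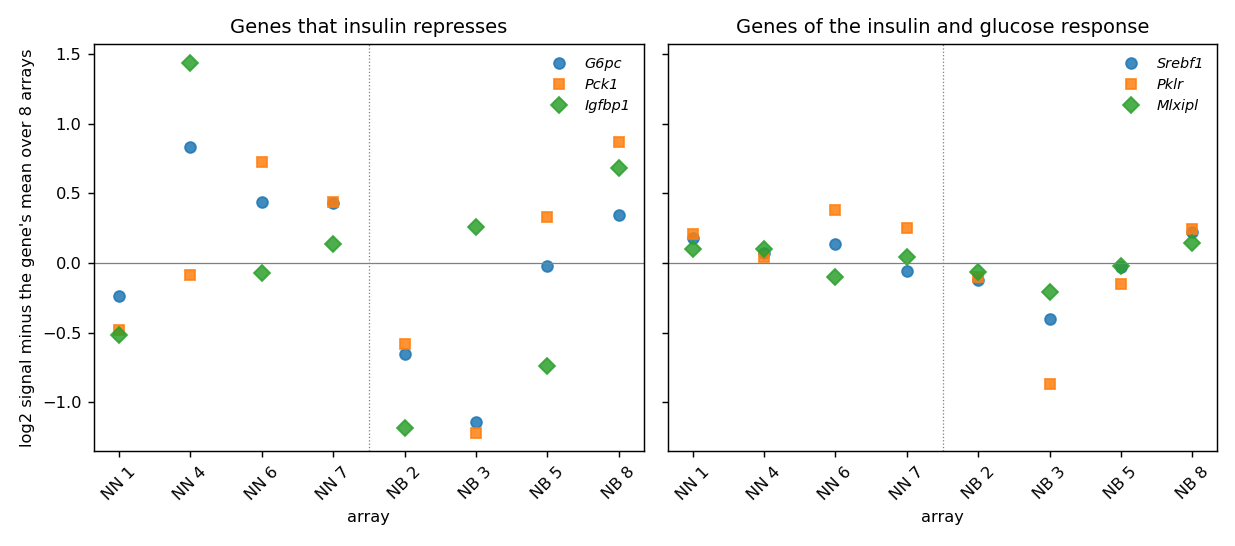
The vertical axis gives the log2 signal of a gene minus its mean over the 8 arrays, with NN arrays left and NB arrays right of the dotted line; G6pc, Pck1 and Igfbp1 stand in the left panel, Srebf1, Pklr and Mlxipl in the right. G6pc and Pck1 lie lowest on NB 3 (−1.14 and −1.22), where Pklr, Srebf1 and Mlxipl are also at their lowest and Igfbp1 is above its mean.

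Relations across arrays were computed for 8 pairs of genes (n = 8 arrays each), with p-values adjusted over the 8. Of the 6 pairs given here, 0 passed after adjustment. G6pc and Pck1 had a Pearson r of 0.794 (exact two-sided permutation p = 0.0181, adjusted p = 0.0794) and a Spearman rho of 0.690 (exact permutation p = 0.0694, adjusted p = 0.332). With the genotype means taken out, r was 0.847 (exact permutation within genotypes, p = 0.0399, adjusted p = 0.319). Without arrays NB 2 and NB 3, the farthest from the G6pc median, r was 0.321. Leaving out the farthest arrays narrows the range of G6pc, which by itself tends to lower r. Without array NN 4, r was 0.957 (exact permutation, adjusted p = 0.00794). Within NB the 4 arrays stood in the same order for both genes, with NB 3 lowest, then NB 2, NB 5 and NB 8. Within NN the orders differed, and NN 4 was highest for G6pc and second lowest for Pck1.

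G6pc and Pklr gave r = 0.776 (exact permutation p = 0.0198, adjusted p = 0.0794; rho 0.667, exact permutation p = 0.0831), and 0.163 without NB 2 and NB 3. Feeding induces Pklr and insulin lowers G6pc, but both genes are also on the list of ChREBP genes and targets below. Both were lowest on NB 3, and the part of feeding in this was not tested. G6pc and Mlxipl gave r = 0.673 (exact permutation p = 0.0676; rho 0.452, p = 0.267) and 0.0488 without NB 2 and NB 3. Mlxipl and Pklr gave r = 0.679 (exact permutation p = 0.0538; rho 0.310, p = 0.462) and 0.0350 without NB 3 and NB 8. All 3 values of r thus fell without those arrays. Their removal also narrows the range of the first gene, which by itself tends to lower r.

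The other 2 pairs set a gluconeogenic gene against Igfbp1, which insulin also represses, and had the smallest Pearson r over all 8 arrays. By rho, G6pc and Igfbp1 stood above G6pc with Mlxipl (0.452) and Mlxipl with Pklr (0.310). For G6pc and Igfbp1 r was 0.548 (exact permutation p = 0.160, rho 0.476, p = 0.243), and 0.872 without NB 2 and NB 3. For Pck1 and Igfbp1 r was 0.204 (exact permutation p = 0.630, rho 0.262, p = 0.536), and 0.263 without NB 3 and NB 8. Slide rows and genotypes hold 4 arrays each, too few for a correlation within them.

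Beyond the 9 genes, the list of gluconeogenic enzymes and glucose release held 27 genes, 4 of them among the 9, and all 27 were tested. limma called 0 of 27, and 0 had an unadjusted p under 0.05. The median log2 fold change was −0.13 beside −0.01 over all features. By array, the median deviation from each gene's mean was −0.15 on NB 2 and −0.18 on NB 3. It was −0.01 on NB 5, 0.16 on NB 8 and 0.03 to 0.11 on the NN arrays. The mean was lower in NB for 26 of 27, against 54.1% of all features. Ldha, the lactate dehydrogenase gene, was the 1 exception at 0.12 (SE 0.152), and is named because it was alone. Quantile normalization and the authors' value table both gave 22 of 27, and leaving out 1 array gave 22 to 26 of 27, with 23 and a median of −0.06 without NB 3. Slc37a4, the transporter that brings glucose 6-phosphate to the phosphatase, read 4.96, 4.98, 4.86 and 4.89 on the NN arrays and 4.70, 4.43, 4.47 and 4.98 on the NB arrays. Its log2 fold change was −0.28 (SE 0.124; limma adjusted p = 1.00), and its second probe gave the same, −0.28 (SE 0.121). As with Gckr, 3 of the 4 NB arrays lay below all NN arrays and NB 8 did not. The mitochondrial isoform Pck2 had −0.03 (SE 0.102). Of the 27 genes, 1 (0.673% of all features, lower in NB) had arrays that did not overlap: Pgam1, a phosphoglycerate mutase gene named after its values were seen, at −0.13 (SE 0.0724).

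The list of glucose uptake, phosphorylation and glycolysis held 30 genes, 4 of them among the 9, and its means went both ways. The mean was lower in NB for 17 and higher for 13, the median was −0.03, and limma called 0. At an unadjusted p under 0.05, as for 1.69% of all features, stood 2 of the 30: Pdha1 of pyruvate dehydrogenase, lower at −0.17 (SE 0.0734), and the hexokinase gene Hk2, higher at 0.37 (SE 0.152), both named after their values were seen. Pdk4, which shuts pyruvate dehydrogenase in fasting, had −0.03 (SE 0.133).

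Of 21 ChREBP genes and targets, 3 of them among the 9 genes, 19 had a lower mean in NB and limma called 0; the median was −0.18. Khk, the fructokinase gene, had −0.27 (SE 0.129), Fgf21, a hormone of fasting and sugar intake, −0.10 (SE 0.367), and Txnip, which glucose induces strongly, −0.04 (SE 0.135). Txnip was highest on NB 3 at 3.57, against 3.03 to 3.10 on the other NB arrays, on the array where Pklr, Mlxipl and G6pc were lowest. The ChREBP list shares its fat synthesis genes with the feeding list, so the 2 counts are not independent.

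Genes that feeding induces were mostly lower in mean in NB, and genes that fasting induces less clearly so. Of 30 fasting and glucagon response genes, 2 of them (G6pc and Pck1) among the 9 genes, 21 had a lower mean in NB. Of 21 feeding and insulin response genes, 0 of them among the 9, 18 did. Over all features the share was 54.1%. The list medians were −0.07 and −0.17, with 0 calls by limma in either. Without NB 2 the fasting count was 16 of 30, where 53.4% of all features were lower. Without NB 5 it was 16 of 29, against 52.1%, and without NB 8 it was 23 of 29, against 51.3%. With 1 array left out, the fasting median was −0.03 without NB 2 or NN 4, −0.02 without NB 5 and −0.15 without NB 8. The feeding median was −0.11 without NB 2, −0.29 without NN 1 and −0.38 without NB 8. At an unadjusted p under 0.05, where 1.69% of all features stood (0.957% lower in NB), the fasting list of 30 had 1 gene, the nuclear receptor gene Nr4a2 at −0.52 (SE 0.132), which rests on 5 arrays because outlier spots on NN 1, NB 2 and NB 3 were left out. The feeding list of 21 had 2, Scd1 at −0.69 (SE 0.270) and Me1 at −0.55 (SE 0.199), all lower in NB and named after their values were seen. The medians of both lists, as deviations from each gene's mean, were lowest on NB 2 (−0.20 for fasting and −0.31 for feeding). On NB 8 both were high (0.32 and 0.29). On NB 3, where G6pc and Pck1 were lowest, the fasting median was 0.02 and the feeding median −0.18. Tat, a fasting and glucocorticoid target, had −0.21 (SE 0.203), Sik1 −0.12 (SE 0.193), Klf15 −0.10 (SE 0.181) and Irs2 0.11 (SE 0.201).

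The regulators of these genes had medians close to that of all features. Of 28 regulators of gluconeogenic transcription, 11 had a lower and 17 a higher mean in NB, with a median of 0.02 and 0 calls by limma, also at an unadjusted p under 0.05. Foxo1, the target of insulin signalling, was at 0.10 (SE 0.133, log2 fold change) and Crtc2, the cAMP-regulated coactivator, −0.02 (SE 0.0900), though its second probe gave 0.11 (SE 0.104). Ppargc1a, the coactivator PGC-1α, had −0.09 (SE 0.275) with its brighter probe and 0.08 (SE 0.0683) with the other. Of 25 tested genes of glucagon and insulin receptor signalling, 9 had a lower and 16 a higher mean in NB, with a median of 0.01 and 0 calls, also without adjustment. Gcgr, the glucagon receptor gene, was steady at −0.10 (SE 0.0766), and Insr, the insulin receptor gene, was at 0.01 (SE 0.167).

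**Figure D4:**
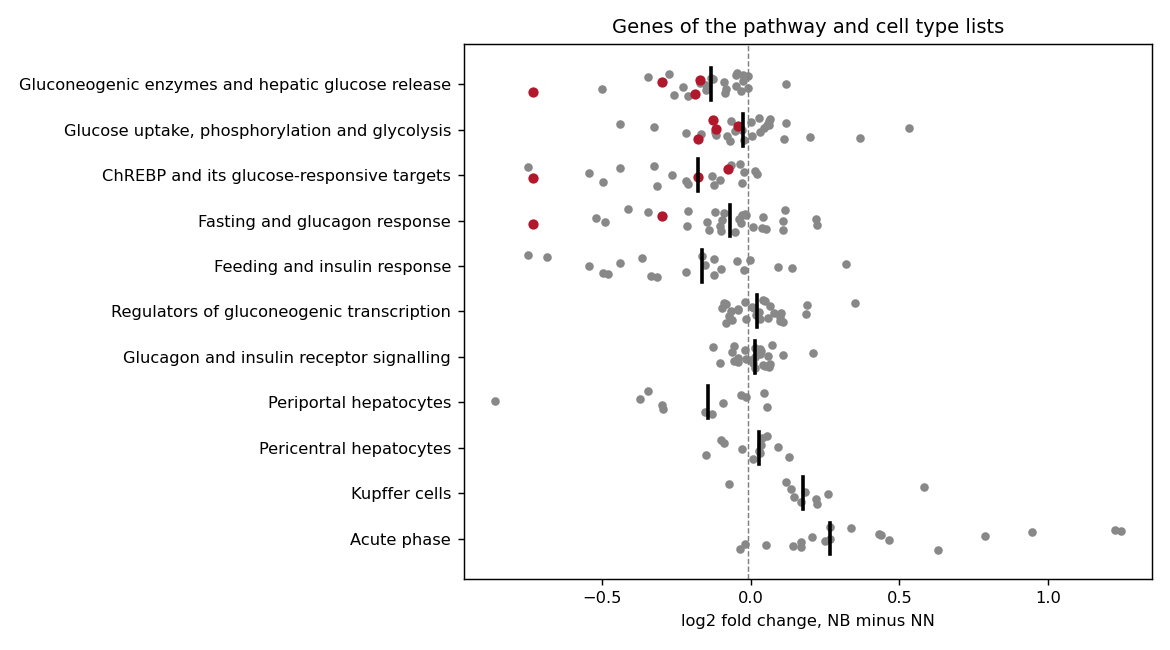
Each point is the log2 fold change (NB minus NN) of 1 gene, in red for the 9 genes described first, black bars are list medians, and the dashed line is the median of all 42965 features (−0.01). The lists of gluconeogenic enzymes, ChREBP targets, feeding genes and periportal genes have medians from −0.18 to −0.13, and the Kupffer cell and acute phase lists lie at 0.18 and 0.27.

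Markers of other cell types and states were read beside these values. Gluconeogenic enzymes are most abundant in periportal hepatocytes, and 10 of 12 periportal markers had a lower mean in NB (median −0.14, 0 calls by limma). At an unadjusted limma p under 0.05 stood 2 of the 12, both lower in NB, as for 0.957% of all features. Sds is also on the gluconeogenic and fasting lists, and Cps1 is also a general hepatocyte marker, so these counts are not independent. The periportal median was −0.06 without NB 3 and −0.24 without NB 8. The summed linear signal of the periportal markers, in units of the array percentile, was 710 to 808 in NB and 804 to 904 in NN. Of 12 pericentral markers 4 were lower (median 0.03; 591 to 627 in NB and 596 to 641 in NN), and of 12 general hepatocyte markers 9 were lower (median −0.03; 2420 to 2669 in NB and 2472 to 2757 in NN). Kupffer cell markers had a higher mean in NB in 9 of 10 cases (median 0.18; summed signal 72.3 to 100.4 in NB and 68.8 to 92.1 in NN), and acute phase genes in 17 of 19 (median 0.27; 2567 to 4264 in NB and 2453 to 4118 in NN). By array, the acute phase median was −0.33, −0.57, 0.03 and 0.26 on NN 1, NN 4, NN 6 and NN 7, and −0.36, 0.37, 0.28 and 0.27 on NB 2, NB 3, NB 5 and NB 8. It was highest on NB 3, where G6pc was lowest, and lowest on NN 4, where G6pc was highest, but it was also low on NB 2, where G6pc was low, and high on NN 7 and NB 8, where G6pc was high. The Kupffer cell median was highest on NB 3 (0.21) and lowest on NN 4 (−0.21). Their part in the values of G6pc and the other genes was not tested.

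Of 9 tested markers of recruited macrophages and monocytes 7 had a higher mean in NB (median 0.20; 67.5 to 111 in NB and 77.9 to 110 in NN). Medians for sinusoidal endothelium, stellate cells, cholangiocytes, lymphocytes, erythroid cells, adipocytes, pancreas, kidney and gut, and skeletal muscle lay between −0.02 and 0.04. Of 16 tested clock genes 11 had a lower mean in NB, with a median of −0.01. Among them Nfil3, a repressor of the clock named after its values were seen, was the 1 gene that did not overlap between the genotypes (0.673% of all features, lower in NB), and its log2 fold change was −0.40 (SE 0.119; limma adjusted p = 1.00).

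The patterns most like those of G6pc and Pck1 over the 8 arrays were sought by Pearson correlation among 22683 other genes well above background on every array. For G6pc these were Gm33058 (0.981), Ndufaf4 (0.978), Hspa1a (0.965), Gm805 (0.962) and Olfr1352 (0.948), and the most opposite were Drd4 (−0.963), Mir6992 (−0.950) and Cchcr1 (−0.949). For Pck1 they were Sec63 (0.989), Dbf4 (0.980), Rrp12 (0.976), Slc22a7 (0.973) and Gm7099 (0.973), and the most opposite were Ppp1r2-ps3 (−0.992), Gpx6 (−0.987) and Ankrd7 (−0.985). No gene stood on both lists. With 8 arrays and so many genes, these correlations are a description with no test.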

How the data were processed

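Each of the 8 files holds the scanner output of 1 array of liver RNA (1 ug RNA per labelling; samples with an RNA integrity number above 8). Per the file headers, Agilent Feature Extraction 11.5.1.1 made the processed signal, a deposited intensity from which background and a spatial trend were already taken; arrays were not yet normalized to each other. The submitters' processing notes name version 9.1. The software's 0 or 1 marks for well above background, outlier and saturated spots were deposited beside other per-spot values and used as such. The value table deposited by the authors lists 59448 rows of linear intensity, with the same sorted values in all 8 columns (median 84.2) and unstated scale.

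Probe accessions were matched without version to the RefSeq table of GRCm38.p6, naming 31064 of 60273 probes. Outlier spots were set missing, spots of 1 probe averaged, and log2 signals set relative to each array's 75th percentile. Probes well above background on at least 4 arrays were kept (47167), the brightest per gene. Features with fewer than 2 values in a genotype were dropped, leaving 42965. limma 3.58.1 in R 4.3.3 (lmFit, eBayes, two-sided, NB minus NN) was run on all of them, with Benjamini-Hochberg adjustment. The procedure was tested on simulated data with 50 changed features per size. It called 26% of changes of 0.5 log2, 66% of 1, 92% of 2 and 100% of 3. In the 42489 simulated features, 9 without a change were also called. A small difference can therefore go uncalled. The changed features were drawn at random, and the median SD within genotypes over all features was 0.172. It was 0.563 for G6pc and 0.761 for Pck1, so these rates do not apply to those genes. Members and lists were chosen with earlier results of these data known. Named genes are the 9 members, 18 of 20 genes set by role (the others, and 2 of 8 correlations, are not reported here), the genes most like G6pc and Pck1, and single list genes named as seen later. All arrays lay on 1 slide with 1 scan date. Alternatives were normexp (offset 50), quantile and median scaling, the authors' table, filters, probe means, array weights, variance settings, slide position, each array left out and an adjusted p of 0.1.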

Additional observations from a re-analysis of the deposited data

Results flagged for a closer look

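Of 54 sets of 4 arrays of 1 genotype (the 9 genes and 18 others named by role), 1 held 1 array far from the other 3, where chance gives about 5% of sets. Txnip was 3.57 on array NB 3, against 3.03 to 3.10 on the other NB arrays. None of the 9 glucose-handling genes had such an array.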

How the results depend on the processing

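Under all 11 other settings of scaling, filter, probe summary, variance and slide position, 0 of the 9 genes were called, 9 of 9 had a lower mean in NB, and their median log2 fold change lay between −0.18 and −0.11. The number of features called over the whole array stayed between 2 and 4, except that averaging all probes of a gene gave 5. At an unadjusted p under 0.05 the main 0 of 9 became 1 with array weights, normexp, the slide row or NN 1 left out, and 2 without NB 8. With 1 array left out, 2 to 3 features and 0 of the 9 genes were called, 7 to 9 had a lower mean in NB, and the median lay between −0.22 and −0.11. Signs turned for Pck1 without NB 3 (−0.640 to 0.0562 over all arrays left out), for Pfkl without NB 2 (0.00167) and without NN 6 (−0.127 to 0.0141), and for Pfkfb1 without NN 6 (−0.237 to 0.0452). The log2 fold change of G6pc ran from −0.97 without NB 8 to −0.47 without NB 3. Of the 6 correlations given, those of G6pc with Pck1 (0.603 to 0.957 with 1 array left out) and with Pklr (0.457 to 0.881) passed only without NN 4. With the genotype mean removed, all 6 kept their sign. Counts of genes with a lower mean in 6 lists, an alternative chosen after seeing the data, lay between 22 and 26 of 27 for gluconeogenic enzymes, 14 and 18 of 21 for feeding genes, 16 and 20 of 21 for ChREBP targets, 16 and 24 of 30 for fasting genes, 15 and 20 of 30 for glucose uptake and glycolysis and 8 and 10 of 12 for periportal markers. Without NB 5 or NB 8, 29 of the fasting genes were tested. No paired analysis by replicate number was made, since the labels' numbers run through both genotypes and are never shared. The slide columns, each with an array of both genotypes, served as a block in 1 of the settings above, with 3 features and 0 of the 9 genes called. Features lower in NB made up 49.4% to 64.0% of all features over the other scalings. The number of arrays sets the precision. The cause of these changes was not tested.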
